A study of Caenorhabditis elegans with 12 samples.

Results

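The pud genes of Caenorhabditis elegans, named for proteins up-regulated in daf-2 mutants, were described across 12 RNA-seq libraries. The family was chosen from earlier results of these data, because its level was lower under stt-3 RNAi, and its members were then found by gene symbol: pud-1.1, pud-1.2, pud-2.1, pud-2.2, pud-3 and pud-4. These are 6 of the 17430 genes listed, all 6 of them passed the filter on low values (10 or more in 3 or more libraries), and no gene with a pud symbol was left out. The choice names a lower level under RNAi without naming the food, so the RNAi effect on either food, and the difference between the PA14 effects, are given for these genes as a description, with no test. The PA14 effect within each RNAi group was tested, on libraries that it shares with those comparisons.

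DAF-2 is the insulin and insulin-like growth factor receptor of C. elegans. Its signal runs through the kinases AGE-1 (phosphoinositide 3-kinase), PDK-1 and AKT-1 and keeps the FOXO transcription factor DAF-16 out of the nucleus. In daf-2 mutants DAF-16 enters the nucleus and raises stress-protection genes, and PUD-1 and PUD-2 are abundant small proteins whose amounts go up in such mutants. PUD-1 and PUD-2 bind each other as a heterodimer, and no enzyme activity has been assigned to them. STT-3 is the catalytic subunit of the oligosaccharyltransferase (OST) complex, which adds N-linked glycans to proteins in the endoplasmic reticulum (ER), and PA14 is a strain of Pseudomonas aeruginosa that infects and kills worms through the intestine.

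Whole wild-type (N2) worms were profiled. Worms had been grown to the L4 larval stage on bacteria carrying stt-3 RNAi or control RNAi and were then placed for 12 h on PA14 or on the same RNAi bacteria (E. coli). The 4 groups were stt-3 RNAi on PA14, control RNAi on PA14, stt-3 RNAi on E. coli and control RNAi on E. coli, with 3 libraries each. Worms on PA14 were no longer fed RNAi bacteria during those 12 h, every library held whole animals, and nothing in the labels says that the replicates were separate cultures, so p-values measure the spread between these libraries, which may be technical.

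The unit throughout is a normalized value: the authors scaled each library by its upper quartile, removed batch effects with RUVSeq and rounded the result, so these are not counts of reads and no sequencing depth can be read from them. Fold changes were taken on log2(value + 1), a scale on which changes at low values come out too small. They were tested with limma across 12908 genes, and a gene was called at a fold change above 2 and a Benjamini-Hochberg (BH)-adjusted p under 0.05.

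By these RNA-seq values, the gene named in the label did not follow it. No other measure of stt-3 was examined here. stt-3 had 469, 513 and 551 in the stt-3-labelled libraries on PA14, against 367, 398 and 434 in control RNAi on PA14, and 461, 488 and 467 against 421, 398 and 434 on E. coli. It was therefore higher in all 6 libraries labelled stt-3 RNAi than in the control libraries on the same food. ostd-1, which encodes another OST subunit, had 114, 100 and 98 in the labelled libraries on PA14, against 823, 656 and 810 in control RNAi, and 138, 124 and 115 against 666, 635 and 624 on E. coli. On the log2 scale stt-3 changed by 0.35 on PA14 and 0.18 on E. coli (limma, BH-adjusted p = 0.0193 and 0.26), so its rise on E. coli did not pass the test. ostd-1 changed by -2.86 on PA14 and -2.35 on E. coli (limma, BH-adjusted p = 1.843e-07 and 1.396e-06). For this reason the 6 are called the stt-3-labelled libraries.

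The summed normalized values lay between 5530614 and 8627187 per library. The library labelled stt-3 RNAi on E. coli replicate 3 stood apart from its group in the pud genes and in other genes, mtl-1 among them. Its value of the long non-coding RNA gene tts-1 was 4906, against 282 and 382 in the other libraries of that group. Its value of the epidermal marker dpy-4 was 286, against 1206 and 2184. Its value of mtl-1, a metallothionein gene, was 1024, against 71 and 70 in the other two libraries of that group, and its value of each pud gene was the highest of the 3. Values of the pud genes and of the gene lists that include this library are followed by those without it where they moved.

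All 6 genes lie in one cluster of 8.89 kb on chromosome V (WBcel235, V:2322038-2330930), as 3 pairs that start next to each other and are transcribed away from each other. The outer pairs are pud-1.2 (WBGene00021236, 2322038 to 2322566, minus strand) with pud-2.2 (WBGene00017500, 2323014 to 2323524, plus strand), and pud-2.1 (WBGene00017490, 2329444 to 2329954, minus strand) with pud-1.1 (WBGene00017499, 2330429 to 2330930, plus strand). In either of these pairs the start codons are 474 bases apart. The pair between them is pud-3 (WBGene00017501, 2324634 to 2325152, minus strand) with pud-4 (WBGene00017498, 2326678 to 2327282, plus strand), whose start codons are 1525 bases apart. All are short protein-coding genes, with 456 to 564 bases of exon. pud-3 is a single exon of 519 bases in the annotation, and the other genes have 2 exons with an intron of 41 bases (pud-4) or 46 bases (the pud-1 and pud-2 genes).

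**Figure D1:**
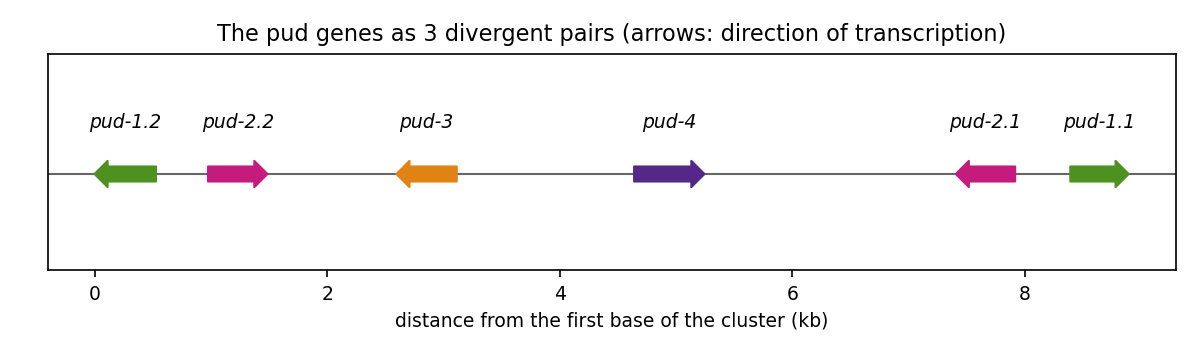
Map of the pud cluster on chromosome V. The x axis is the distance in kb from the first base of the cluster, arrows are the genes to scale and point in the direction of transcription, and colours mark pud-1 (green), pud-2 (magenta), pud-3 (orange) and pud-4 (purple). In each of the 3 pairs the genes point away from each other, within 8.89 kb in all, and each outer pair holds a pud-1 and a pud-2 gene.

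pud-1.1 and pud-1.2 are near-identical copies, as are pud-2.1 and pud-2.2, so the division of reads between the copies is uncertain. The ratio of pud-1.1 to pud-1.2 lay between 0.947 and 0.978 over the 12 libraries, and that of pud-2.1 to pud-2.2 between 1.06 and 1.09. The copies thus carry nearly the same information, and their sums are given below beside the single genes. Only 2 other genes listed start within 20 kb of a pud gene. They are Y19D10B.6, with values of 0 to 5, and irld-35, with values of 0 to 8, and both were too low to be tested.

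On PA14, all 6 pud genes had lower values in the stt-3-labelled libraries. For none of the 6 did the groups overlap, as for 30.7% of all genes tested in one direction or the other, and nothing is read from this count because the choice used a lower level under RNAi. pud-3 had 242, 295 and 236 in the labelled libraries, against 11363, 6446 and 10650 in control RNAi. pud-4 had 453, 504 and 392 in the labelled libraries, against 19333, 9026 and 14195 in control RNAi. The lowest control library was therefore more than an order of magnitude above the highest labelled library for both genes of the middle pair.

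On the log2 scale pud-3 differed by -5.16 ± 0.31 (± standard error here and below), which is 35.8-fold lower and the sixth lowest of the 12908 genes tested. pud-4 differed by -4.92 ± 0.45, 30.2-fold lower and the ninth lowest. Both genes of the middle pair thus stood near the end of the whole distribution.

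The outer pairs differed less. pud-1.1 had 3718, 3110 and 3136 in the labelled libraries on PA14, against 31638, 23936 and 29142 in control RNAi, and pud-1.2 had 3834, 3194 and 3310 against 32784, 24793 and 30309. pud-2.1 had 3993, 3353 and 3311 in the labelled libraries, against 39744, 27496 and 35807 in control RNAi, and pud-2.2 had 3694, 3135 and 3028 against 37005, 25560 and 33281. The separation between groups was again complete for each copy. The log2 fold changes were -3.08 for pud-1.1 and pud-1.2, -3.26 for pud-2.1 and -3.27 for pud-2.2.

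Summing the copies removed the question of how their reads were divided. The pud-1 sum averaged 6767 ± 683 in the stt-3-labelled libraries on PA14 and 57534 ± 8020.2 in control RNAi on PA14 (SD, n = 3 each), 8.50-fold lower. The pud-2 sum averaged 6838 ± 739 in the labelled libraries and 66298 ± 12090.5 in control RNAi (SD, n = 3 each), 9.70-fold lower.

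All 6 met the calling rule on PA14, beside 3.33% of all genes tested, from which again nothing is read. Their median log2 fold change was -3.27, against 0.05 over all genes tested. Over the 23 alternatives, which include every fit that left out a library, the log2 fold change of pud-3 lay between -5.42 and -5.01, that of pud-4 between -5.21 and -4.66, and those of the other 4 genes between -3.42 and -2.90.

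**Figure D2:**
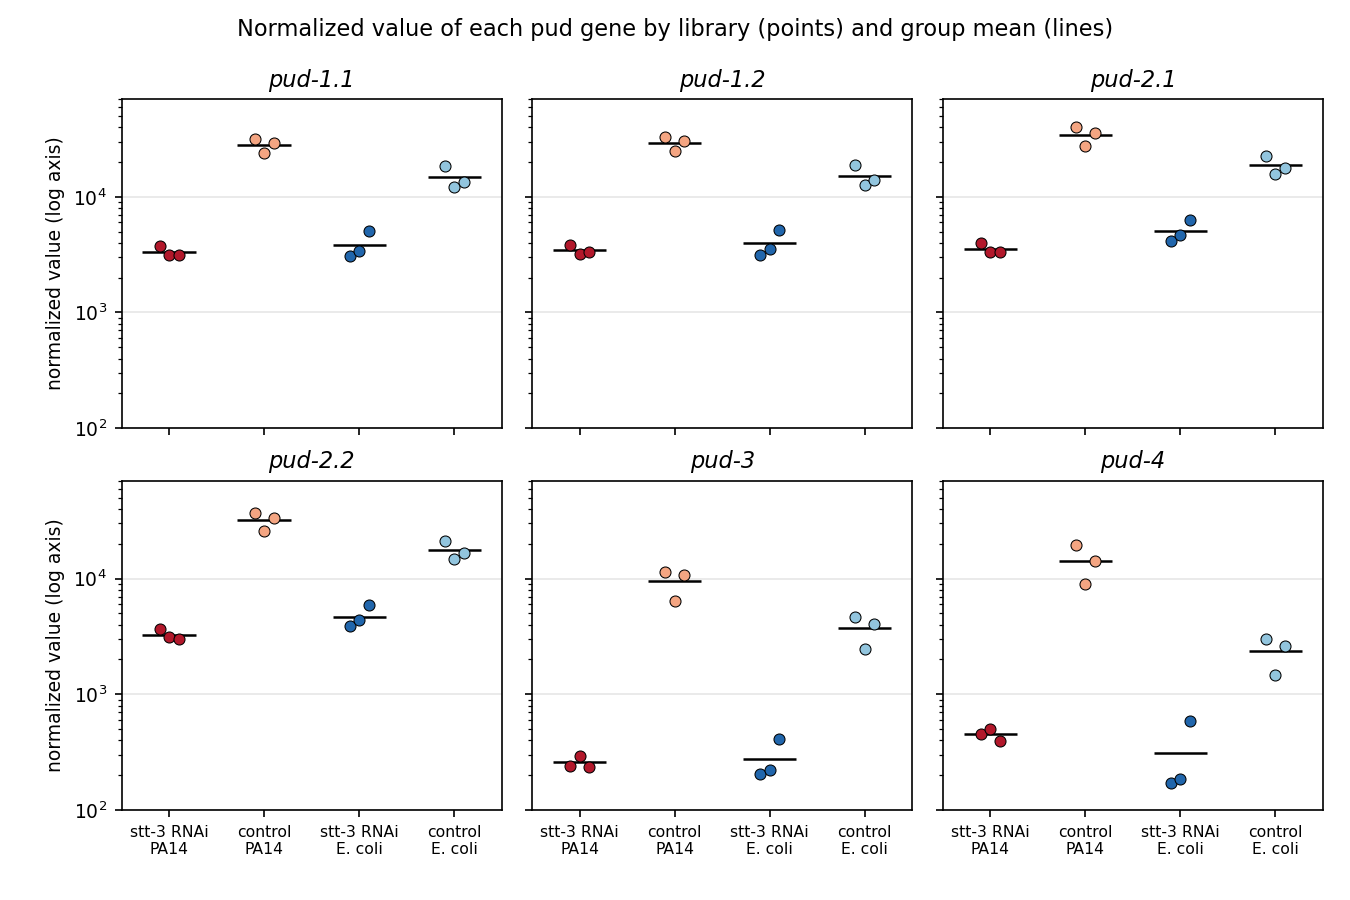
Normalized value of each pud gene in each library (points; the replicates of a group from left to right are 1, 2 and 3) with group means (lines), on a logarithmic axis. In all 6 panels the libraries labelled stt-3 RNAi lie below control RNAi on the same food, and pud-3 and pud-4 reach values of 171 to 587 in them, against 1468 to 19333 in the control libraries.

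On E. coli the same 6 genes had lower values in the stt-3-labelled libraries. pud-3 had 205, 220 and 410 in the labelled libraries, against 4662, 2445 and 4018 in control RNAi. pud-4 had 171, 184 and 587 in the labelled libraries, against 2997, 1468 and 2625 in control RNAi. Replicate 3 of the labelled libraries was the highest of its group for both genes and still lay below every control library.

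pud-1.1 had 3087, 3413 and 5044 in the labelled libraries, against 18431, 12179 and 13494 in control RNAi, and pud-1.2 had 3155, 3544 and 5183 against 18955, 12539 and 13990. pud-2.1 had 4133, 4692 and 6261 in the labelled libraries, against 22586, 15799 and 17833 in control RNAi, and pud-2.2 had 3883, 4355 and 5868 against 21147, 14801 and 16617. Here too the groups did not overlap for any of the 6 genes, while the labelled libraries lay wholly below the control libraries for 12.9% of all genes tested.

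As a description, the log2 fold changes on E. coli were -3.75 ± 0.31 for pud-3 and -3.09 ± 0.45 for pud-4 (standard error). They were -1.94 and -1.95 for pud-1.1 and pud-1.2 and -1.90 for both pud-2 genes, with standard errors of 0.19 to 0.20. These are 13.5-fold and 8.52-fold lower for pud-3 and pud-4, and 3.74-fold to 3.86-fold lower for the pud-1 and pud-2 copies. All 6 met the calling rule, beside 1.23% of all genes tested, and nothing is read from either count. Without stt-3 RNAi on E. coli replicate 3 the log2 fold changes were -4.07 for pud-3, -3.66 for pud-4 and -2.07 to -2.16 for the others.

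In worms on control RNAi the family had higher values on PA14 than on E. coli. pud-4 averaged 14185 ± 5154 on PA14 and 2363 ± 797 on E. coli (SD, n = 3 each), which differ by 2.58 ± 0.45 on the log2 scale (limma, BH-adjusted p = 0.00077), 5.98-fold higher. pud-3 averaged 9486 ± 2657 on PA14 and 3708 ± 1140 on E. coli (SD, n = 3 each), and changed by 1.36 ± 0.31 on the log2 scale (limma, BH-adjusted p = 0.0041). The PA14 libraries of control RNAi lay above its E. coli libraries without overlap for all 6 members, as they did for 30.5% of all genes tested.

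The outer pairs rose by slightly less than 2-fold. The log2 fold changes in control RNAi were 0.95 for pud-1.1, 0.96 for pud-1.2, 0.87 for pud-2.1 and 0.87 for pud-2.2, each with a standard error of 0.19 to 0.20 (limma, BH-adjusted p = 0.0023 to 0.0032). The pud-1 sum averaged 57534 ± 8020.2 on PA14 and 29863 ± 6661 on E. coli, and the pud-2 sum 66298 ± 12090.5 on PA14 and 36261 ± 6751 on E. coli (SD, n = 3 each), with no overlap and an exact permutation p of 0.1 for each. With 3 libraries against 3, 0.1 is the smallest 2-sided p of such a test. Of 16 exact permutation tests of the PA14 effect on sums, shares and ratios of the family, 10 reached 0.1, which is 0.16 after BH adjustment over the 16, so none could pass 0.05.

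Hence 2 of the 6 members, pud-3 and pud-4, were called higher on PA14 in control RNAi, where 10.7% of all genes tested were. At a BH-adjusted p under 0.05 with no fold threshold, all 6 were higher, where 25.8% of all genes were. These changes share the control libraries with the RNAi effects described above. Leaving out control RNAi on E. coli replicate 1, the highest of its group for all 6 genes, or control RNAi on PA14 replicate 2, the lowest of its group for all 6, brought all 6 members past 2-fold, as did quantile normalization. A test against the 2-fold threshold itself kept 1 member, pud-4, and gave pud-3 a BH-adjusted p of 0.616, the highest of its 23 alternatives, whose lowest was 0.00137 (limma).

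In the stt-3-labelled libraries, no pud gene was called higher on PA14 (0 of 6, beside 8.30% of all genes tested) and none was called in either direction (0 of 6, beside 22.3%), with 2 of 6 at an unadjusted p under 0.05 (limma). pud-3 averaged 258 ± 32.5 on PA14 and 278 ± 114 on E. coli (SD, n = 3 each), a change of -0.04 ± 0.31 on the log2 scale (limma, BH-adjusted p = 0.920). For pud-1.1 and pud-1.2 the log2 fold changes were -0.18 ± 0.20 and -0.17 ± 0.20 (limma, BH-adjusted p = 0.497 and 0.524). Without labelled stt-3 RNAi on E. coli replicate 3 the values were 0.27 for pud-3, 0.03 for pud-1.1 and 0.04 for pud-1.2 (limma, BH-adjusted p = 0.469, 0.912 and 0.876). With all libraries kept, PA14 and E. coli libraries overlapped for these 3 genes. Without replicate 3 those of pud-3 did not, at 205 and 220 on E. coli against 242, 295 and 236 on PA14.

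The pud-2 genes had lower values in every labelled library on PA14 than in any on E. coli, without passing the test, and they were the 2 of 6 members without overlap here, beside 52.2% of all genes tested in either direction. Their log2 fold changes were -0.48 ± 0.19 for pud-2.1 and -0.50 ± 0.19 for pud-2.2 (limma, BH-adjusted p = 0.061 and 0.055). The pud-2 sum averaged 6838 ± 739 on PA14 and 9731 ± 2140 on E. coli (SD, n = 3 each; exact permutation p = 0.1). Without replicate 3 of the labelled E. coli libraries the log2 fold changes were -0.32 for pud-2.1 and -0.33 for pud-2.2 (limma, BH-adjusted p = 0.186 and 0.167). In control RNAi the same genes were higher on PA14 in every library.

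pud-4 had the only positive log2 fold change, 0.76 ± 0.45 (limma, BH-adjusted p = 0.204), and this value turned on one library. Without labelled stt-3 RNAi on E. coli replicate 3, whose pud-4 value was 587 against 171 and 184 in the other libraries of its group, pud-4 was called higher on PA14 by 1.33 on the log2 scale (limma, BH-adjusted p = 0.0083; from 0.0083 to 1.0 over the 23 alternatives). It was then the only member called. Without that library the median log2 fold change of the 6 members was 0.03, against -0.18 with it.

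The difference between the PA14 changes, taken as that in the labelled libraries minus that in control RNAi, was negative for all 6 genes. It was -1.83 ± 0.64 for pud-4 and -1.41 ± 0.44 for pud-3 on the log2 scale (standard error), -1.36 and -1.37 for pud-2.1 and pud-2.2, and -1.14 and -1.13 for pud-1.1 and pud-1.2. This difference holds the contrasts from which the family was chosen, so the values are a description. Without stt-3 RNAi on E. coli replicate 3 it lay between -0.92 and -1.25 for the 6 genes.

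**Figure D3:**
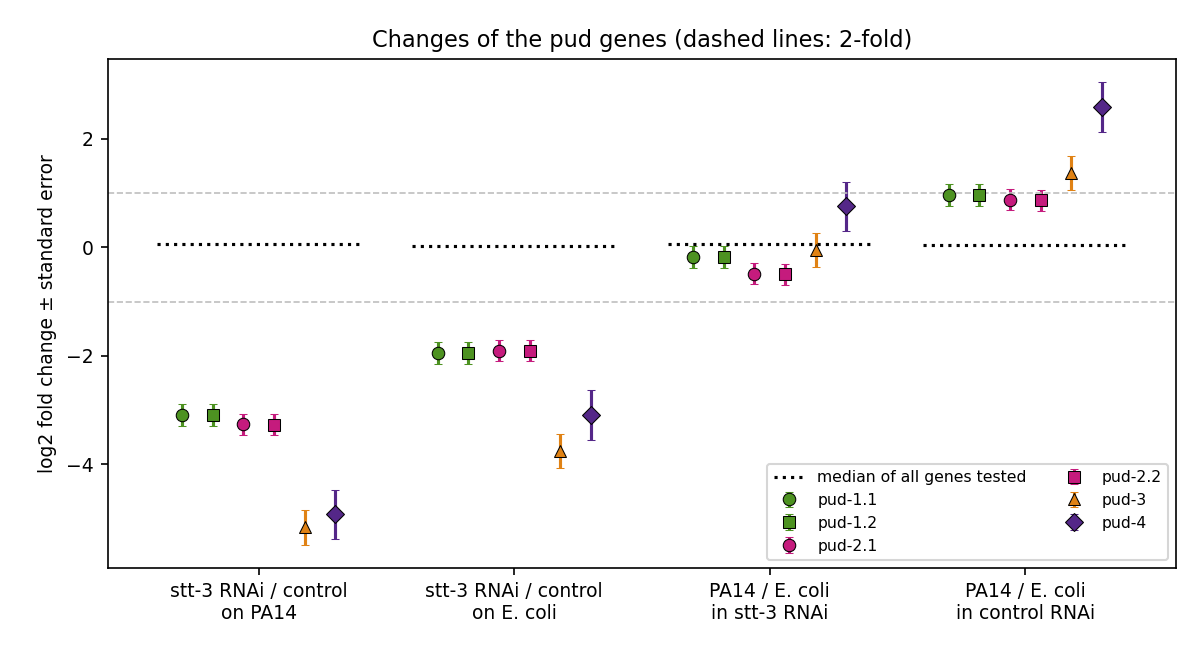
Log2 fold changes (points) with standard errors (bars) of the 6 pud genes in the 4 comparisons, with the median of all genes tested (dotted) and the 2-fold thresholds (dashed). Under stt-3 RNAi all 6 lie below -1, with pud-3 and pud-4 lowest on both foods, and on PA14 in control RNAi all 6 lie above 0, with pud-4 highest at 2.58.

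As a share of the summed normalized values, the 6 genes together made up 0.248% ± 0.018 of the total in the stt-3-labelled libraries on PA14 and 2.21% ± 0.32 in control RNAi on PA14 (SD, n = 3 each). They made up 0.266% ± 0.103 in those labelled stt-3 RNAi on E. coli and 0.902% ± 0.218 in control RNAi on E. coli (SD, n = 3 each). The summed values of a library, by which these shares were divided, were lowest in the labelled libraries on PA14. The share was 8.92-fold lower in the labelled libraries on PA14 than in control RNAi on PA14, and the groups did not overlap. In the labelled libraries the share on PA14 and on E. coli overlapped (exact permutation p = 1). Without labelled replicate 3 on E. coli, whose share was 0.385%, the E. coli mean was 0.207% (n = 2), below all 3 labelled PA14 libraries.

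**Figure D4:**
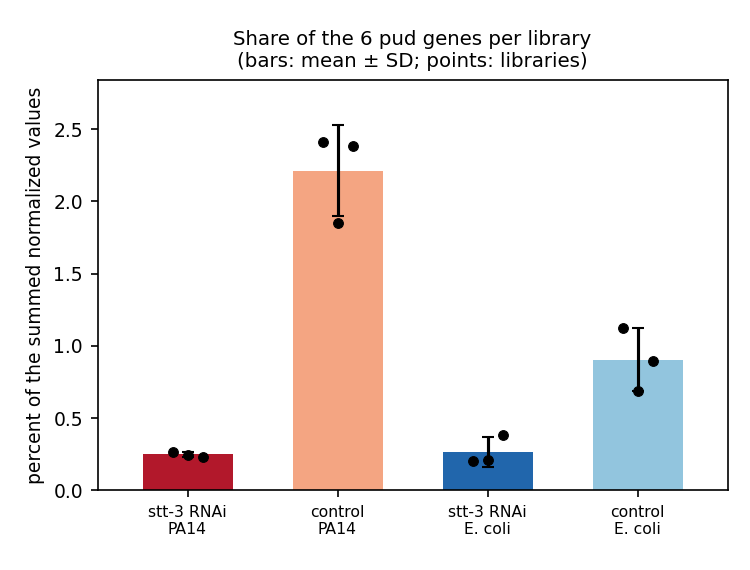
Share of the 6 pud genes in the summed normalized values of each library, in percent (bars, group mean ± SD, n = 3; points, libraries). The share was 2.21% in control RNAi on PA14 and 0.902% in control RNAi on E. coli, and both groups labelled stt-3 RNAi lay below 0.4%.

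Per kb of exon, the levels of the pud-1 and pud-2 genes lay close together and above those of pud-3 and pud-4 in every group. In control RNAi on PA14 the normalized values per kb were 73869 ± 13447 for pud-2.1, 68707 ± 12554 for pud-2.2, 61927 ± 8618 for pud-1.1 and 60653 ± 8470 for pud-1.2 (SD, n = 3). The ranges of these 4 genes overlapped between libraries, but within each of the 12 libraries pud-2.1 was the highest of the 4, at 1.04 to 1.38 times the level of pud-1.2. They were followed by pud-4 at 25150 ± 9137 and pud-3 at 18278 ± 5120 per kb, which overlapped with each other but not with the 4 above. In the labelled libraries on PA14 the pud-1 and pud-2 genes lay between 7066 and 7639 per kb on average, pud-4 at 797 ± 99.4 and pud-3 at 496 ± 62.6 (SD, n = 3).

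The level of pud-4 relative to pud-3 differed between the foods. Per kb of exon, pud-4 averaged above pud-3 on PA14 in control RNAi (25150 against 18278) and below it on E. coli in control RNAi (4190 against 7145). The ranges of the 2 genes over the libraries overlapped on either food. Within each control library, though, pud-4 was above pud-3 on PA14 and below it on E. coli. The ratio of the normalized value of pud-4 to that of pud-3 averaged 1.75 ± 0.11 in the labelled libraries on PA14 and 1.48 ± 0.20 in control RNAi on PA14, and 1.03 ± 0.34 in those labelled stt-3 RNAi on E. coli and 0.632 ± 0.028 in control RNAi on E. coli (SD, n = 3 each). PA14 libraries lay above E. coli libraries without overlap in control RNAi (2.34-fold) and in the labelled libraries (1.69-fold), each with an exact permutation p of 0.1. Every PA14 library thus had a higher ratio than every E. coli library of the same RNAi group, in a design in which no such test can pass 0.05. Between the labelled and the control libraries on PA14 the ratio overlapped. Labelled stt-3 RNAi on E. coli replicate 3 had a ratio of 1.43, against 0.834 and 0.836 in the other two. Without it the E. coli mean was 0.835 (n = 2), and the labelled PA14 mean was 2.09 times that.

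Between the labelled and the control libraries the middle pair differed by more than the outer pairs. The sum of pud-3 and pud-4, in percent of the sum of the pud-1 and pud-2 genes, averaged 5.24% ± 0.89 in the labelled libraries on PA14 and 18.8% ± 3.3 in control RNAi on PA14 (SD, n = 3 each). On E. coli it averaged 3.21% ± 1.09 in the labelled libraries, or 2.58% without replicate 3 (n = 2), and 9.08% ± 1.85 in control RNAi (SD, n = 3 each). pud-3 and pud-4 therefore made up a smaller part of the family in the labelled libraries on either food. The ratio of the pud-2 sum to the pud-1 sum varied less, at 1.01 ± 0.02 in the labelled libraries on PA14, against 1.15 ± 0.05 in control RNAi on PA14, and 1.26 ± 0.06 in the labelled libraries on E. coli (1.29 without replicate 3, n = 2), against 1.22 ± 0.04 in control RNAi on E. coli (SD, n = 3 each).

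**Figure D5:**
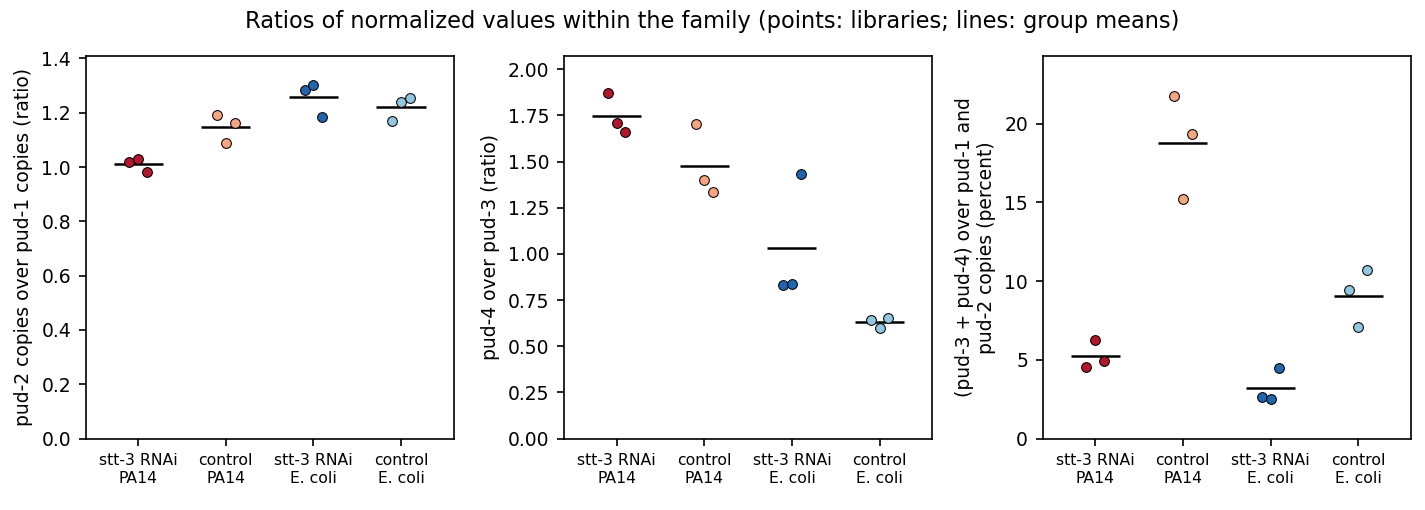
Ratios of normalized values within the family by library (points) with group means (lines): pud-2 copies over pud-1 copies (left), pud-4 over pud-3 (middle) and the middle pair in percent of the outer pairs (right). The pud-4 to pud-3 ratio is above 1.3 in all 6 PA14 libraries and below 0.66 in the control libraries on E. coli, and the middle pair is a smaller percentage in the stt-3-labelled libraries.

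The family has relatives by name outside the cluster, the pud-like genes pudl-1 (WBGene00044489, chromosome IV, 2832906 to 2833379) and pudl-2 (WBGene00044490, chromosome IV, 2834816 to 2835286), which were looked up after the values of the pud genes were seen. Both were low. pudl-1 had 51, 29 and 54 in the labelled libraries on PA14, against 20, 22 and 22 in control RNAi on PA14, and 29, 45 and 27 in the labelled libraries on E. coli, against 22, 60 and 31 in control RNAi on E. coli. pudl-2 lay between 3 and 20 in all 12 libraries. Neither was called in any comparison, and the log2 fold changes under RNAi on PA14 were 0.98 for pudl-1 and 0.69 for pudl-2 (limma, BH-adjusted p = 0.116 and 0.442), opposite in sign to those of the pud genes. On E. coli the sign was not opposite. There the labelled and control means were 33.7 and 37.7 for pudl-1 and 9.33 and 13.3 for pudl-2 (n = 3 each), with overlapping libraries.

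The pud genes are known for their response to daf-2, so the genes of that pathway were examined from a list of 22. Of the 21 that were tested, 0 were called in either direction under RNAi on PA14 or on E. coli, with median log2 fold changes of 0.13 and 0.20, beside 0.05 and 0.02 over all genes tested. At an unadjusted p under 0.05 there were 4 on PA14 and 4 on E. coli (limma), and akt-2 (log2 fold change 0.95) and sgk-1 (-0.59), both kinase genes of the pathway, had BH-adjusted p of 0.024 and 0.019 on PA14 at less than 2-fold. On E. coli 1 gene of the list, pptr-1 (0.35), had a BH-adjusted p under 0.05, of 0.029, at less than 2-fold (limma). daf-16, the FOXO factor, had 33, 43 and 43 in the labelled libraries on PA14, against 32, 40 and 37 in control RNAi on PA14. daf-2 itself was low, at 3 to 11 in all 12 libraries.

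The PA14 effect on that list was near the background share. In control RNAi, 3 of 21 were higher on PA14, beside 10.7% of all genes tested, namely ins-7, an insulin-like peptide gene (log2 fold change 2.33), pqm-1, a zinc finger transcription factor gene (2.22), and ins-4, another insulin-like peptide gene (1.82), and 1 was lower, beside 15.9%, the insulin-like gene daf-28 (-1.57; limma, BH-adjusted p of 7.754e-05 to 0.0294). In the labelled libraries 3 of 21 were higher, beside 8.30%, which were ins-4 (2.03), the kinase gene akt-2 (1.24) and pqm-1 (1.14; limma, BH-adjusted p of 0.0014 to 0.0053). Without replicate 3 of the labelled E. coli libraries the same 3 and the kinase gene pdk-1 (1.14; limma, BH-adjusted p = 0.00035) were called.

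A second list held 24 genes that DAF-16 is known to raise in daf-2 mutants, of which 21 were listed and tested. Under RNAi on PA14, 2 of 21 were higher, beside 1.97% of all genes tested, the small heat shock genes hsp-16.2 (log2 fold change 1.87) and hsp-16.1 (1.67), and 2 were lower, beside 3.33%, the saposin-like gene spp-1 (-1.90) and the metallothionein gene mtl-2 (-1.32; limma, BH-adjusted p of 0.00030 to 0.0488), with a median of 0.16 over the 21, beside 0.05 over all genes tested. On E. coli 1 of 21 was called, sod-3, a mitochondrial superoxide dismutase gene, which was lower (-1.08; limma, BH-adjusted p = 0.0069), beside 1.23%. hsp-16.1 has a near-identical copy, so that its own value is uncertain.

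In control RNAi, 9 of 21 genes of this second list were higher on PA14, beside 10.7% of all genes tested, and 1 was lower, beside 15.9%, with the largest increases in mtl-1 (log2 fold change 6.03), the long non-coding RNA gene tts-1 (4.35), lea-1, a gene of the late embryogenesis abundant kind (3.21), and nnt-1, a transhydrogenase gene (2.99). In the labelled libraries 10 of 21 were higher, beside 8.30%, and 11 were called in either direction, beside 22.3%. mtl-1 (4.86), tts-1 (3.42), nnt-1 (2.08) and lea-1 (1.59) were among those higher (limma, BH-adjusted p of 0.0012 to 0.0412). Replicate 3 of the labelled E. coli libraries was the highest of its group for these 4 genes. Without it the same 10 and dod-3 were called higher (11 of 21, beside 9.15%), and the log2 fold changes were 6.14 for mtl-1, 4.72 for tts-1, 3.13 for nnt-1 and 2.05 for lea-1 (limma, BH-adjusted p of 1.811e-05 to 0.00025). Between the RNAi groups the PA14 effects differed for 1 of 21, sod-3, which was called higher in the labelled libraries minus control RNAi (1.31; limma, BH-adjusted p = 0.033), beside 0.232% of all genes tested, and 0 were called lower. The median difference over the 21 was -0.52 on the log2 scale, beside 0.05 over all genes tested. This median includes replicate 3 of the labelled E. coli libraries and was not computed without it, so nothing is read from it. With all libraries, mtl-1, tts-1, nnt-1 and lea-1 rose less in the labelled libraries than in control RNAi. Without replicate 3, mtl-1 (6.14 against 6.03), tts-1 (4.72 against 4.35) and nnt-1 (3.13 against 2.99) rose slightly more than in control RNAi. Only lea-1 of these 4 still rose less (2.05 against 3.21).

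Markers of the tissues in whole worms moved with the family in part. In bulk RNA from whole animals, fewer cells of a type and less RNA per cell cannot be told apart. The summed values of 9 intestinal markers were 14667 to 17818 in the labelled libraries on PA14, against 46058 to 69211 in control RNAi on PA14, and 17189 to 18856 in the labelled libraries on E. coli, against 27282 to 30264 in control RNAi on E. coli. Of the 9, 4 were lower on PA14 under RNAi, beside 3.33% of all genes tested, which were the aspartic protease gene asp-1 (log2 fold change -2.49), the intestinal filament gene ifb-2 (-2.01), the proton pump gene vha-6 (-1.75) and mtl-2 (-1.32; limma, BH-adjusted p of 2.143e-05 to 0.0023). The gut-fate GATA factor gene elt-2 (-0.26) and the gut esterase gene ges-1 (0.03) were not called (limma, BH-adjusted p = 0.444 and 0.945). Most of the summed values in control RNAi on PA14 came from asp-1, at 50155, 31778 and 49885. On E. coli under RNAi 0 of the 9 were called. There, at less than 2-fold, asp-1 (-0.84) and the protease gene cpr-6 (-0.60) were lower and ges-1 (0.81) was higher (limma, BH-adjusted p = 0.0304, 0.0229 and 0.0097). In control RNAi, 3 of the 9 were higher on PA14, beside 10.7%, which were asp-1 (1.65), the GATA factor gene elt-7 (1.24) and ges-1 (1.069; limma, BH-adjusted p of 8.039e-05 to 0.0017). Below 2-fold, vha-6 (0.76), elt-2 (0.61) and cpr-6 (0.34) were higher and mtl-2 (-0.82) was lower (limma, BH-adjusted p of 0.0017 to 0.0497). In the labelled libraries 0 of the 9 were higher on PA14 and 2 were lower, beside 1809 of the 12908 genes tested. These were mtl-2 (-1.46) and ifb-2 (-1.42; limma, BH-adjusted p = 0.00032 and 0.00021). There vha-6 (-0.72; limma, BH-adjusted p = 0.0032) was lower below 2-fold.

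The yolk protein genes, which the adult intestine expresses, were lower as well. The 6 vit genes summed to 34759 to 41691 in the labelled libraries on PA14, against 96693 to 140199 in control RNAi on PA14, and to 50322 to 56969 in the labelled libraries on E. coli, against 74575 to 95569 in control RNAi on E. coli. Of the 6, 5 were lower under RNAi on PA14, beside 3.33% of all genes tested, and 3 on E. coli, beside 1.23%, with vit-1 lowest on PA14 (log2 fold change -4.75; limma, BH-adjusted p = 3.021e-06). vit-1 was lower on PA14 in control RNAi too (-2.42; limma, BH-adjusted p = 6.358e-05). It was the only 1 of the 6 called there, beside 15.9% of all genes tested, and the median PA14 change of the 6 was 0.22. In the labelled libraries 3 of the 6 were lower on PA14, beside 1809 of the 12908 genes tested, and 0 were higher. Their median there was -1.73.

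No marker of the epidermis (9 tested), body wall muscle (5), pharynx (4), neurons (6), germline (7), oocytes and eggshell (8) or sperm (33) was called under RNAi on either food, and of these 72 markers 5 had an unadjusted p under 0.05 on PA14 and 5 on E. coli (limma). At less than 2-fold, 2 had a BH-adjusted p under 0.05 on each food (limma). These were perm-4 (log2 fold change 0.47) and syp-1 (0.47) on PA14, and snb-1 (0.26) and glh-1 (-0.43) on E. coli. On PA14, all 33 sperm markers were lower in control RNAi, beside 15.9% of all genes tested. They were lower in the labelled libraries too, beside 1809 of the 12908 genes tested. Their median log2 fold changes were -3.74 and -3.67, and most of the 33 are major sperm protein (msp) genes. Of the 5 body wall muscle markers, 3 were lower and 0 higher on PA14, in control RNAi and in the labelled libraries alike. Of the 9 epidermal markers, 2 were lower and 1 higher on PA14 in control RNAi, and 2 were lower and 2 higher in the labelled libraries. Of all genes tested, 10.7% were higher on PA14 in control RNAi and 8.30% in the labelled libraries. Whether the worms on the 2 foods differed in stage was not tested. No marker on these lists was at 0 in every library. The part of these tissues in the values of the pud genes was not tested.

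Within the family the profiles over the 12 libraries were close. The Pearson correlation of log2 values between 2 members lay between 0.944 and 1 over the 15 pairs, as a description over 12 libraries that all genes share and that fall into 4 groups. Outside the family, the 5 genes whose profiles were most like the mean profile of the 6 were txt-4 (r = 0.979), nuc-1, a lysosomal deoxyribonuclease gene (0.976), Y40H7A.10 (0.968), ostd-1 (0.964) and inx-8, an innexin gene (0.962). There were 52 genes at 0.9 or above.

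The 5 genes had lower values under RNAi on both foods. That direction follows from picking them for a profile like that of the family, so nothing is read from it. They differed in the PA14 effect within the labelled libraries, where the log2 fold changes were -0.80 for nuc-1, -1.06 for Y40H7A.10, -0.27 for ostd-1, -0.05 for txt-4 and 0.09 for inx-8. nuc-1 had 106 to 115 in the labelled libraries on PA14, against 768 to 1203 in control RNAi on PA14, and 174 to 229 in the labelled libraries on E. coli, against 472 to 503 in control RNAi on E. coli. Y40H7A.10 had 79 to 85 in the labelled libraries on PA14, against 862 to 1152 in control RNAi on PA14, and 132 to 265 in the labelled libraries on E. coli, against 527 to 584 in control RNAi on E. coli. Their log2 fold changes under RNAi on PA14, -3.16 and -3.60, were of the size seen in the pud-1 and pud-2 genes. inx-8 had 332 to 359 in the labelled libraries on PA14, against 470 to 502 in control RNAi on PA14, and 294 to 346 in the labelled libraries on E. coli, against 415 to 470 in control RNAi on E. coli.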

How the data were processed

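RNA was taken from whole worms in 12 libraries (4 groups of 3). According to the sources, the authors aligned reads to WBcel235 (ce11) with HISAT2 2.0.5, quantified genes with StringTie 1.3.3b and Ballgown, and removed batch effects by upper-quartile normalization and RUVSeq with control genes. The deposited column is a score: normalized values rounded to whole numbers, not read counts. The depth is unknown and no counting interval can be given. Because values were batch-corrected before deposit, p-values may be too small. Strand use, annotation release, control genes and the number of RUVSeq factors are not given in the sources used here.

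Of 17430 genes, the 12908 that reached 10 in 3 or more libraries were fitted as log2(value + 1) with limma 3.58.1 in R 4.3.3 (1 mean per group, all 12 libraries, mean-variance trend, BH adjustment). Calls used a fold above 2 and an adjusted p under 0.05, the thresholds stated for the study. A count test had been foreseen only for raw counts and was not used. Ratios and sums were tested for the PA14 effects with 2-sided exact permutation tests (scipy 1.17.1). The planned tests of the members under RNAi on PA14 are not given, because the choice of members may have used that comparison. The fit was tested on simulated data. Alternatives were other filters, pseudocounts of 0.5 and 5, median-of-ratios and quantile scaling, no trend, only the groups compared, a test against 2-fold, summed copies, a replicate block and leaving out each library.

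The members, gene lists and markers were chosen with earlier results of these data known. The genes named were the members, stt-3 and ostd-1, the 5 genes most like the family's mean profile, neighbours within 20 kb, list members called (up to 4 per list by fold change), and markers. daf-16, daf-2, sgk-1 and the pudl genes were added after their values were seen. Symbols came from the reference tables (16626 of 17430 IDs). The tables give the symbol pud-2.2 to 2 IDs, and RefSeq names the gene at the coordinates of WBGene00017490 pud-2.1. Sequences, promoter motifs and protein identity were not analysed here.

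On PA14, deviations from the group mean correlated between stt-3 and control RNAi libraries of the same number (r = 0.534, 0.255 and 0.394 across genes), so those numbers were taken to pair the libraries. In the other comparisons at least 1 pair was under 0.1. The largest correlation between libraries was 0.988, and none were identical.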

Additional observations from a re-analysis of the deposited data

Results flagged for a closer look

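In pud-2.1 and pud-2.2 the PA14 libraries lay below every E. coli library of the same group in the stt-3-labelled libraries and above every E. coli library in control RNAi. The difference between the PA14 changes was -1.36 for pud-2.1 and -1.37 for pud-2.2 on the log2 scale. No test of this difference is given for these genes, because the family was chosen for its level under RNAi. The 2 genes are near-identical copies and count as 1 observation.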

How the results depend on the processing

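Under RNAi on PA14 the replicate block, which applies to that comparison, called 438 genes lower, against 430 without it, and in the PA14 effects it changed no call of a pud gene. In control RNAi, the members called higher on PA14 numbered 2, but 6 with quantile normalization, 1 with the test against 2-fold, and 2 to 6 when a library was left out. In the stt-3-labelled libraries 0 to 1 were called higher when a library was left out. The median log2 fold change of the members with quantile normalization was -1.64 for RNAi on E. coli and 1.36 for PA14 in control RNAi. For PA14 in the stt-3-labelled libraries it reversed to 0.015 with quantile normalization, and ranged from -0.32 to 0.033 when a library was left out, the upper value without stt-3 RNAi on E. coli replicate 3.

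The background shares moved too. With the test against 2-fold, 0.0387% of genes tested were lower under RNAi on E. coli, 0.922% lower under RNAi on PA14, 4.71% higher on PA14 in control RNAi, 2.56% higher and 9.05% lower on PA14 in the stt-3-labelled libraries, and 0.031% had a lower difference of the PA14 changes. With only the groups compared, 0.38% were lower under RNAi on E. coli, and that setting gives no value for the difference. With no filter 0.769% had a lower difference, and with a mean value of at least 50 as the filter 9.08% were lower on PA14 in the stt-3-labelled libraries. Leaving out a library gave 0.776% to 1.56% for RNAi on E. coli and 0.599% to 1.56% for the difference. By number, the stricter filter, which tests fewer genes, called 100 and 270 genes lower under RNAi on E. coli and on PA14, against 159 and 430, while with no filter 1758 genes were higher on PA14 in the stt-3-labelled libraries, against 1071. Among the alternative log2 fold changes of single pud genes, 262 of the PA14 effects stayed on the same side of the calling rule (called or not), 13 became called and 1 lost the call. Of those given with no test, 404 moved by less than the spread between replicates and 4 by more. No depth is known, so no limit of detection is set.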
